A study of Mus musculus with 32 samples.

Results

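The axon guidance families of the mouse lung were followed on one-colour arrays of lung RNA. The members were the probes whose gene name begins with that of a class 3 to 7 semaphorin, a plexin, an Eph receptor, an ephrin, a Slit, a Robo, a netrin or an Unc5 receptor. The names selected 93 probes of 69 gene names among the 55681 mouse probes of the array. Of these names, 66 are guidance genes, and the other 3 (Unc5cl, Unc50 and Plxna4os1) only share the letters and are not guidance receptors or ligands. A probe entered the tests if some group had it above background (by the scanner software's flag) in each of its 4 mice, which left 89 probes of 67 gene names, and 39160 of all mouse probes. Epha6 and Unc5d passed in no group, and Ntn5 was tested at P14 but not at P5.

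The mice were wild-type C57Bl/6J pups, and every array held the lung RNA of 1 mouse. The pups breathed 21% O2 (room air) or 85% O2 (hyperoxia, a model of bronchopulmonary dysplasia). All received an antimiR, a modified oligonucleotide that binds a microRNA, either against miR-34a (A34a) or with a scrambled sequence (SCR), so every control mouse was injected as well. Lungs were taken at postnatal day 5 (P5) or 14 (P14), which gave 8 groups of 4 mice. The 32 arrays lay on 4 slides, and each slide held 1 age and 1 oxygen level. Oxygen level or age and slide therefore cannot be told apart. The SCR and A34a mice of a slide lay in different rows of it, so antimiR and row cannot be told apart either.

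Guidance cues were first described as ligands that steer growing axons by attraction or repulsion, and the same ligands and receptors direct migration and adhesion of endothelial, epithelial and mesenchymal cells. Semaphorins signal through plexins, and most secreted class 3 semaphorins use neuropilins as co-receptors. Ephrins sit on the cell membrane and bind Eph receptor tyrosine kinases on neighbouring cells. Slits are secreted ligands of Robo receptors, and netrins are laminin-related secreted proteins that bind Dcc, neogenin and the Unc5 receptors.

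The microRNA that the antimiR was directed against is printed first, from RefSeq (GRCm38.p6), with 2 others that carry the same seed. The seed, bases 2 to 8 and in capitals, is the stretch with which a microRNA pairs with its target RNAs.
mmu-miR-34a-5p: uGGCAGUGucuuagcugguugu
mmu-miR-34b-5p: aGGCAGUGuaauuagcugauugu
mmu-miR-449a-5p: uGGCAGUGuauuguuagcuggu
The letters complementary to that seed, CACTGCC, occurred in 1 of the 93 member probes, a probe of Sema4d, and in 0.449% of all mouse probes. A probe covers 60 bases, so the rest of each transcript was not searched. That Sema4d probe differed between A34a and SCR mice by -0.24 to 0.50 on the log2 scale over the 4 comparisons, with adjusted p between 0.427 and 0.946 (limma).

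For 7 members that the results turn on, the 150 bases before the RefSeq start of the gene are printed (GRCm38.p6, 5′ to 3′ on the strand of the gene). At P14 in SCR mice Robo3, Epha2 and Epha3 were higher in 85% O2 and Epha8, Ntn3 and Ntn4 were lower, while at P5 Epha3, Epha8 and Ntn4 were not called. Unc5c was the member called for the antimiR. The stretches lie at chr9:37433176-37433325 (Robo3, minus strand), chr4:141301071-141301220 (Epha2, plus strand), chr16:63864176-63864325 (Epha3, minus strand), chr4:136956817-136956966 (Epha8, minus strand), chr17:24209388-24209537 (Ntn3, minus strand), chr10:93640899-93641048 (Ntn4, plus strand) and chr3:141465414-141465563 (Unc5c, plus strand). Capitals mark matches, on either strand, to ACGTG (the core of hypoxia response elements), TGANTCA (AP-1), GGGCGG (Sp1), GGAATG (TEAD) and TATAAA (the TATA box).
Robo3: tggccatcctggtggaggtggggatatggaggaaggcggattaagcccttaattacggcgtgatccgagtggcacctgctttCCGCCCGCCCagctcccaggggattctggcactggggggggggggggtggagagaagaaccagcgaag
Epha2: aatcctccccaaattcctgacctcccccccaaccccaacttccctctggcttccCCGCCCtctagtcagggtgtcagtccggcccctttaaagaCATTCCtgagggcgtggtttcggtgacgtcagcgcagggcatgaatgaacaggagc
Epha3: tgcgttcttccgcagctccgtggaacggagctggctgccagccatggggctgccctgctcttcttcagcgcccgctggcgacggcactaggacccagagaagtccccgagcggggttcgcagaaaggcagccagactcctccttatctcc
Epha8: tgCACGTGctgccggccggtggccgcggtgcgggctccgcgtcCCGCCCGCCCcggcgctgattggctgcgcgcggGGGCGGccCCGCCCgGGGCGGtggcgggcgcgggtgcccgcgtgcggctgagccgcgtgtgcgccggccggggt
Ntn3: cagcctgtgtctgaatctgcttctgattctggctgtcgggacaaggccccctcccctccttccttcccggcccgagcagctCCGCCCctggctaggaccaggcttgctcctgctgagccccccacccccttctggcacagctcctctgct
Ntn4: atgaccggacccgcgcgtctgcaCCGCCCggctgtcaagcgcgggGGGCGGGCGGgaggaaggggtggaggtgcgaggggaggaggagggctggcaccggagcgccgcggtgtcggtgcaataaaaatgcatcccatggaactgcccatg
Unc5c: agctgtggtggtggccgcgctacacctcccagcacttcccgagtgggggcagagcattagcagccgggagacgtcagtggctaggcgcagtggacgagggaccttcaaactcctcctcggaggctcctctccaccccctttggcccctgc
The letters GGGCGG occurred before 51 of the 75 starts of member genes (68%) and before 28.6% of all 32851 starts of the table. ACGTG occurred before 13.3% of the member starts and 11.2% of all starts, TGANTCA before 2.67% and 4.24%, GGAATG before 5.33% and 7.59%, and TATAAA before 2.67% and 7.57%. Of the 69 gene names, 59 were in the table. Among the printed stretches, ACGTG lay in Epha8, where the matches on both strands overlap, and GGAATG in Epha2. Epha3 and Unc5c held none of these letters in this window. A match is a description of the letters and shows no binding.

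Levels are log2 intensity minus the 75th percentile of the same array, so that a step of 1 is a factor of 2. They compare 1 probe across mice, not genes with each other. Each gene is described on its brightest tested probe. It is called when its adjusted p is under 0.05 over all tested probes (limma, Benjamini-Hochberg), and differences are on the log2 scale with their SE. In these bulk samples, fewer cells of a type and less RNA per cell cannot be told apart. Between 33614 and 40786 probes were well above background on an array. At P14 the range was 39012 to 40786 in 21% O2 and 34617 to 36476 in 85% O2. The part of this difference in the falls of dim probes was not tested. Among the 32 arrays, 3 stood apart. At P5 in 21% O2, SCR replicate 4 had a mean level of 8 skeletal muscle markers of 4.47, relative to all mice of its age, against a group median of 0.30. At P14 in 21% O2, SCR replicate 4 and A34a replicate 1 lay with the other antimiR.

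Efna2, a membrane-anchored ligand of EphA receptors, showed the last point. In 21% O2 at P14 its level was -0.32, -0.29, -1.17 and 2.21 in the 4 SCR mice and -0.16, 2.48, 2.50 and 2.55 in the 4 A34a mice. SCR replicate 4 lay with A34a replicates 2 to 4, and A34a replicate 1 lay with SCR replicates 1 to 3. Plxnb2, a receptor of class 4 semaphorins, separated the same mice in the opposite direction, with 4.26, 4.26, 4.32 and 3.80 in SCR and 4.22, 3.89, 3.94 and 3.91 in A34a mice. The 75th percentile of log2 intensity also separated them, at 10.1 to 10.2 in SCR replicates 1 to 3 and A34a replicate 1 and at 9.34 to 9.64 in the other 4. Its part in these values was not tested. Every mouse was kept in the group of its label, and member calls that changed without the 3 arrays are given. The lists of markers and of pathway genes were not read without them.

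**Figure D1:**
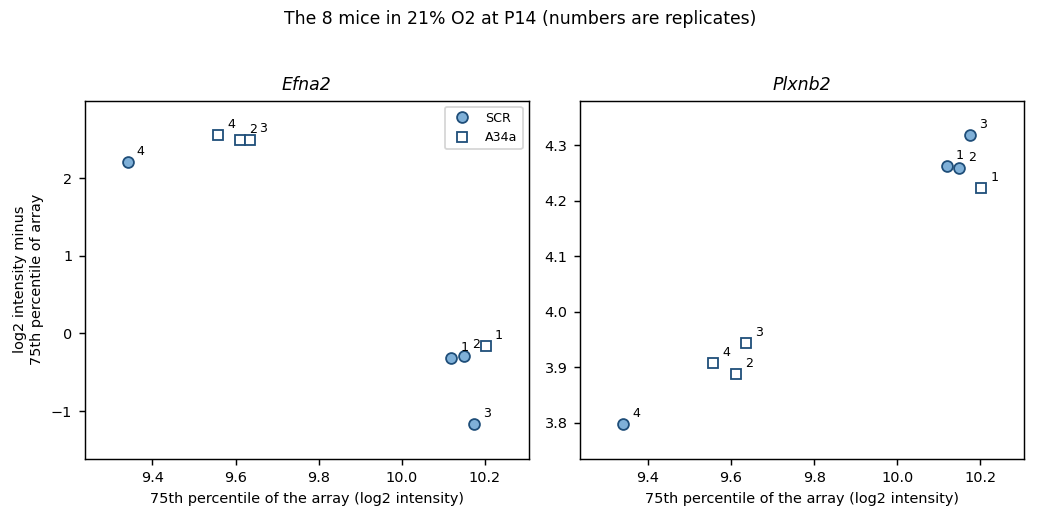
Level of Efna2 and Plxnb2 (log2 intensity minus the 75th percentile of the array) in the 8 mice in 21% O2 at P14, with SCR and A34a mice marked apart and set against the 75th percentile of log2 intensity of the array. SCR replicate 4 and A34a replicate 1 each lie with the mice of the other antimiR.

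The first question was what 85% O2 did to these genes in SCR mice. At P5, 28 of 66 tested member names changed, 10 higher and 18 lower, which is 42.4% against 45.8% of all gene names (n = 4 mice a group, limma). The share was near that of the whole array. At P14, 49 of 67 changed, 26 higher and 23 lower, which is 73.1% against 61.6% of all gene names. With normexp the split at P14 was 27 higher and 16 lower, and with quantile normalization 22 and 19. Of all gene names 18.2% rose and 27.6% fell at P5, and 28.9% rose and 32.7% fell at P14, which is the background of the counts by family. The 23 lower names at P14 include Ntn5, whose direction the filter on dim probes set. The median difference was -0.17 for the members and -0.08 for all gene names at P5, and -0.02 and -0.06 at P14. Without the 3 arrays that stood apart, 26 and 47 changed. Plxna1, Sema3f and Epha10 then lost their call at P5 and Sema4g, Sema7a and Sema3a at P14, and Unc5c at P5 and Ephb6 at P14 gained one, both lower.

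**Figure D2:**
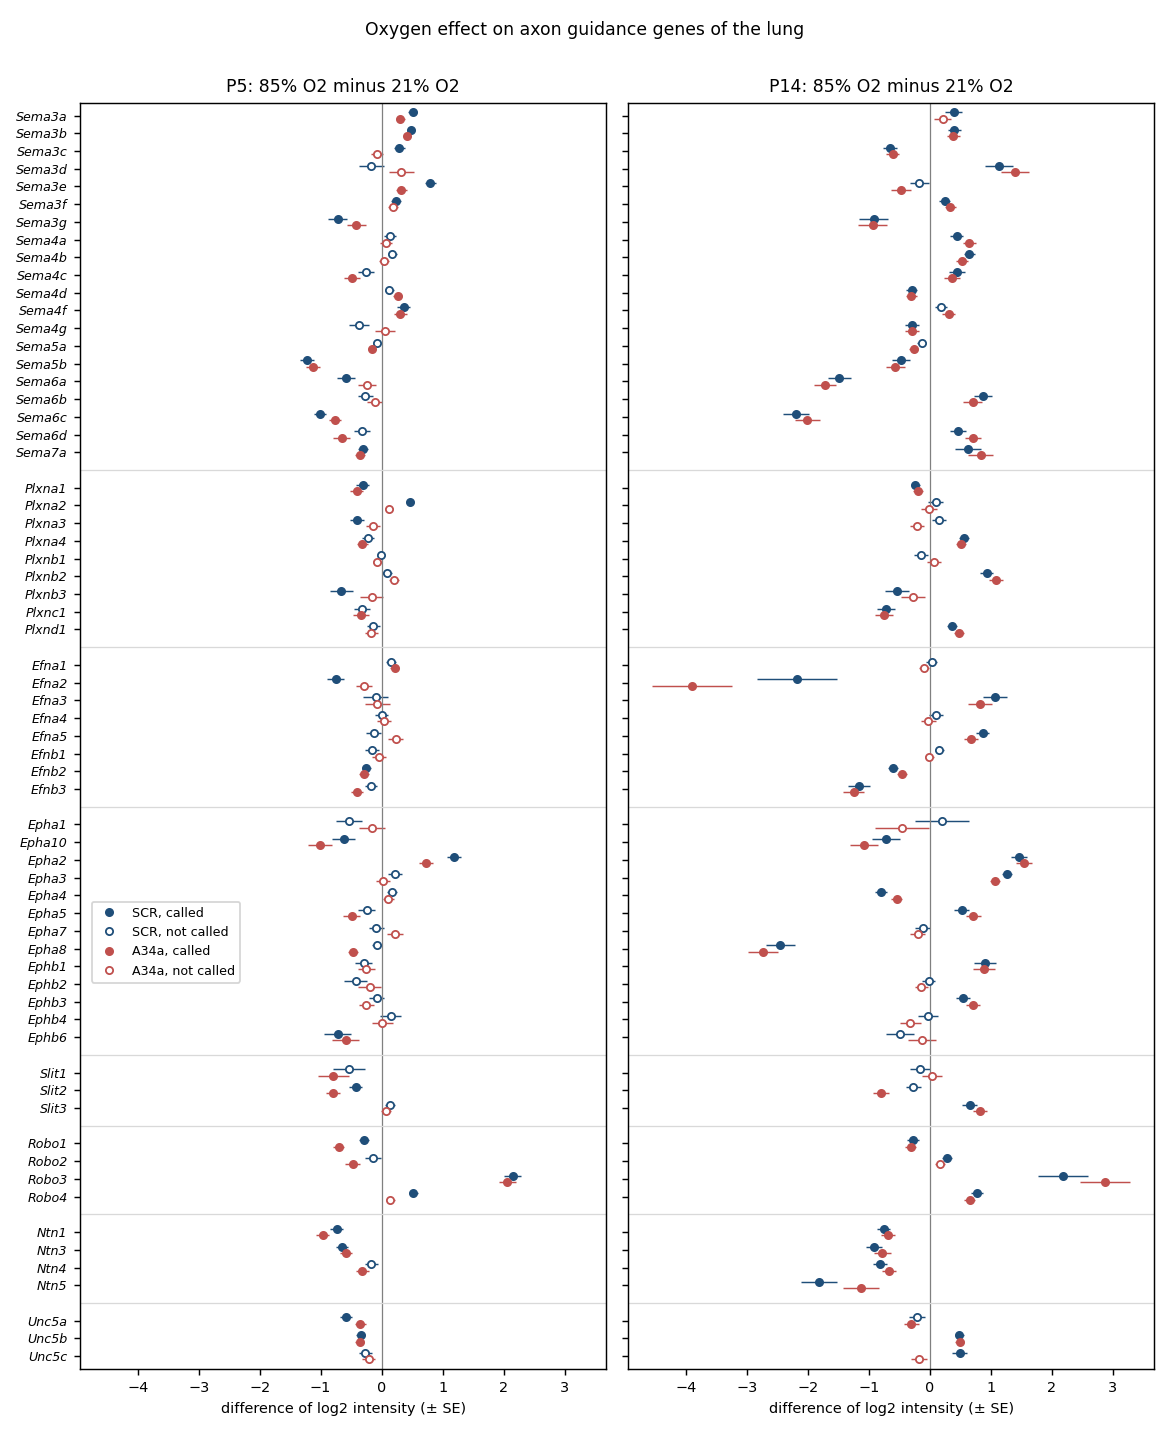
Difference of log2 intensity between 85% O2 and 21% O2 for each tested guidance gene, by family, at P5 (left) and P14 (right), in SCR mice (blue) and A34a mice (red). Points are estimates from 4 mice a group, bars are ± SE, and filled points were called. The tested netrins lie below 0 in both panels, and Robo3 is the highest point in both.

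Semaphorins, with 20 genes, moved in both directions. At P5 6 rose and 5 fell, while at P14 10 rose and 7 fell (7 and 6 with quantile normalization). Sema3e, a secreted ligand of Plxnd1 that repels endothelial cells, was at -0.23, -0.38, -0.31 and -0.61 in 21% O2 and at 0.43, 0.38, 0.46 and 0.40 in 85% O2 at P5. The groups did not overlap, and the rise was 0.80 ± 0.10 (SE, adjusted p = 1.6e-05, limma). At P14 Sema3e differed by -0.18 (adjusted p = 0.35, limma). The secreted Sema3a, Sema3b and Sema3f rose at both ages, by 0.51, 0.48 and 0.24 at P5 and by 0.39, 0.40 and 0.24 at P14. With quantile normalization Sema3b (0.20, adjusted p = 0.115, limma) and Sema3f (0.04, adjusted p = 0.732, limma) were not called at P14, nor with the authors' values. Sema4f rose by 0.37 at P5, and this did not pass the methods' t-test (adjusted p = 0.0646).

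The transmembrane class 6 semaphorins, which bind class A plexins, moved apart. Sema6c was at 0.73, 0.61, 0.64 and 0.95 in 21% O2 and at -0.12, -0.21, -0.43 and -0.36 in 85% O2 at P5. At P14 it was at 0.69, 0.50, 0.68 and 0.81 and at -1.85, -1.83, -1.30 and -1.12. All mice in 85% O2 lay below all mice in 21% O2 at both ages, and Sema6c fell by 1.01 ± 0.10 at P5 and by 2.19 ± 0.21 at P14 (SE, adjusted p = 3e-06 and 1.12e-06, limma). Its dimmer probe fell by 0.72 and 0.75. Sema6a fell by 0.59 at P5 and by 1.48 at P14. Sema6b went the other way at P14, from -2.46, -2.41, -2.33 and -2.53 in 21% O2 to -1.71, -1.53, -1.43 and -1.57 in 85% O2, without overlap, and rose by 0.87.

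Sema5b, a transmembrane semaphorin with thrombospondin repeats, had the largest fall of the called members at P5 (after normexp it fell by 0.88, less than Sema6c with 0.96). Its mice were at -2.04, -2.09, -2.18 and -1.74 in 21% O2 and at -3.10, -3.29, -3.38 and -3.18 in 85% O2, and it fell by 1.23 ± 0.12 (SE, adjusted p = 2.37e-06, limma). The dimmer Sema5b probes fell less, from means of -2.95 and -3.58 in 21% O2 to -3.52 and -4.13 in 85% O2. Sema3d, a secreted semaphorin, rose by 1.14 ± 0.23 at P14 (SE, adjusted p = 0.000662, limma), from -3.41, -3.62, -3.61 and -3.28 to -2.99, -2.57, -1.94 and -1.85. Sema3g, made by endothelium, fell by 0.72 at P5 and by 0.92 at P14, and neither passed the methods' t-test (adjusted p = 0.104 and 0.0545). Sema3c, a ligand of cardiac and endothelial patterning, was uncertain at P14, where its brighter probe was called at -0.65 and its dimmer probe at 0.48.

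Plexins, the receptors of the semaphorins, had 9 genes tested, of which 1 rose and 3 fell at P5, while 3 rose and 3 fell at P14. With normexp 5 fell at P5 and 1 at P14, and with quantile normalization 2 fell at P5, and 2 rose and 1 fell at P14. The calls of Plxna1 and Plxnb3 at P14 were lost under both. Plxnb2 was at 4.26, 4.26, 4.32 and 3.80 in 21% O2 and at 5.13, 5.09, 5.09 and 5.06 in 85% O2 at P14. The groups did not overlap, and the rise was 0.93 ± 0.11 (SE, adjusted p = 1.03e-05, limma), or 0.81 without the arrays that stood apart. At P5 Plxnb2 differed by 0.08 (adjusted p = 0.43, limma). Plxna2, a receptor with neuropilins of class 3 semaphorins, rose by 0.47 at P5, from 1.47, 1.61, 1.49 and 1.49 to 2.05, 1.97, 2.07 and 1.87. Plxna4 and Plxnd1, the receptor of Sema3e, rose by 0.57 and 0.37 at P14. With quantile normalization Plxnd1 was not called (0.17, adjusted p = 0.151, limma), nor with the authors' values, and a dimmer Plxna4 probe was not called (0.43, adjusted p = 0.317, limma). Plxnc1 was uncertain there, with called probes at -0.72 and 0.31.

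**Figure D3:**
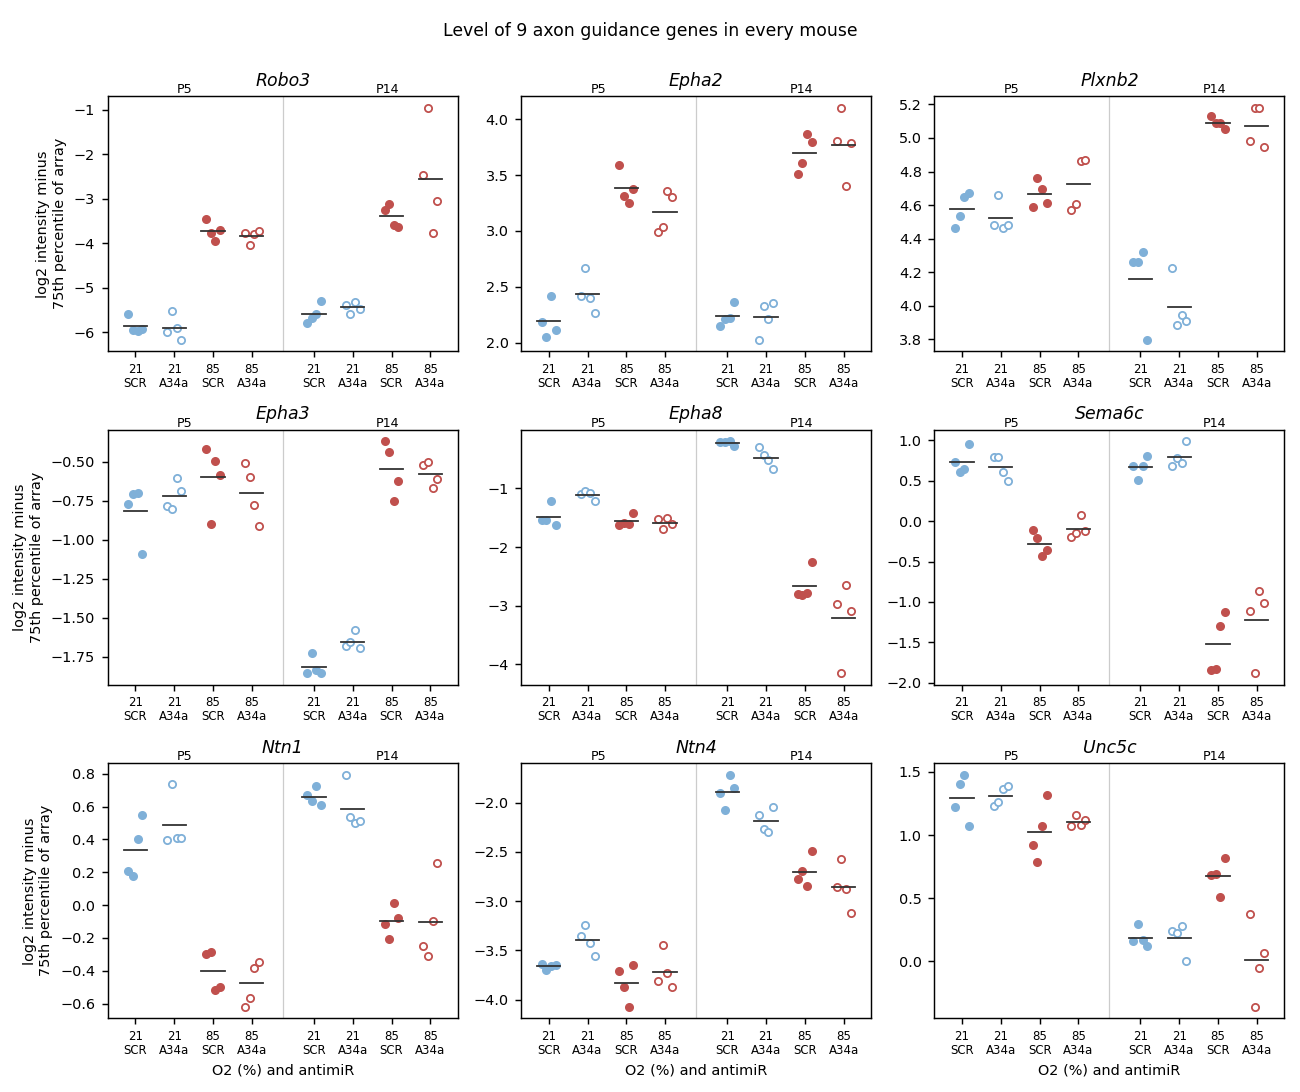
Level of 9 guidance genes (log2 intensity minus the 75th percentile of the array) in every mouse, at P5 and P14, by O2 and antimiR. Points are mice (filled SCR, open A34a, blue 21% O2, red 85% O2) and lines are means of 4 mice. Robo3 and Epha2 are higher in 85% O2 at both ages, Epha3 and Plxnb2 at P14, and Unc5c in 85% O2 at P14 is lower in A34a than in SCR mice.

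Ephrins, the membrane-bound ligands of the Eph receptors, had 8 genes tested, of which 0 rose and 2 fell at P5, while 2 rose and 3 fell at P14. Efna3 was at -2.88, -2.91, -2.88 and -3.49 in 21% O2 and at -2.30, -2.09, -1.78 and -1.73 in 85% O2 at P14, and rose by 1.06. Efnb3 was at -1.36, -1.47, -1.26 and -1.32 and at -2.41, -2.56, -2.64 and -2.43, and fell by 1.16. Neither pair of groups overlapped. Efna5 rose by 0.87 at P14, and Efnb2, a marker of arterial endothelium, fell by 0.25 at P5 and by 0.60 at P14. Its dimmer probe differed by 0.09 at P5 (adjusted p = 0.544, limma). Efna2 fell by 0.76 at P5 and by 2.17 ± 0.66 at P14 (SE, adjusted p = 0.0107, limma). Without the arrays that stood apart, of which its own level showed those of P14, its P14 difference was -1.47. The methods' t-test over all arrays gave an adjusted p of 0.0962.

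Eph receptors, the tyrosine kinases that bind ephrins, had 13 genes tested, of which 1 rose and 2 fell at P5, while 5 rose and 3 fell at P14. Epha2, an epithelial and endothelial receptor, was at 2.19, 2.05, 2.42 and 2.12 in 21% O2 and at 3.59, 3.31, 3.25 and 3.38 in 85% O2 at P5. At P14 it was at 2.15, 2.21, 2.22 and 2.36 and at 3.51, 3.60, 3.87 and 3.80. The groups did not overlap at either age, and Epha2 was 2.28-fold higher at P5 and 2.75-fold higher at P14 (adjusted p = 2.44e-06 and 7.36e-07, limma). The difference of this effect between the ages was 0.27 ± 0.18 (SE, adjusted p = 0.225, limma).

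Epha3, a receptor of mesenchymal cells, was at -1.85, -1.73, -1.83 and -1.85 in 21% O2 and at -0.37, -0.44, -0.75 and -0.62 in 85% O2 at P14. All mice in 85% O2 lay above all in 21% O2, by 1.27 ± 0.08 (SE, adjusted p = 3.31e-08, limma). At P5 the difference was 0.22 (adjusted p = 0.155, limma), and the difference between the ages passed the test (1.05, adjusted p = 4.1e-06, limma). Ephb1 rose by 0.91 at P14, where its mice lay between -2.43 and -2.07 in 21% O2 and between -1.66 and -1.15 in 85% O2. Epha5 was uncertain there, since its brighter probe was called at 0.52 and its dimmer probe at -0.86.

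Epha8 moved the other way. At P14 its mice were at -0.20, -0.20, -0.20 and -0.27 in 21% O2 and at -2.81, -2.82, -2.78 and -2.26 in 85% O2. The fall of 2.45 ± 0.24 was the largest among the called members in SCR mice at P14 without background correction by normexp (SE, adjusted p = 1.76e-06, limma). After normexp Epha8 fell by 1.89 and Sema6c by 1.98. At P5 Epha8 was at -1.62 to -1.22 in 21% O2 and at -1.63 to -1.42 in 85% O2, with a difference of -0.08. Epha4 fell by 0.80 at P14. Ephb6, which lacks kinase activity, fell by 0.72 at P5. Epha10 was called lower at both ages (-0.62 and -0.72), but at neither after normexp background correction (-0.13 and 0.08) or quantile normalization (-0.30 and -0.28).

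Among the 3 Slit ligands, Slit2 fell by 0.43 at P5 and Slit3 rose by 0.66 at P14. Robo3, a divergent Robo receptor known from commissural axons, had the largest rise of the members at both ages. It was at -5.60, -5.95, -5.96 and -5.93 in 21% O2 and at -3.44, -3.77, -3.94 and -3.70 in 85% O2 at P5. At P14 it was at -5.80, -5.67, -5.59 and -5.29 and at -3.24, -3.11, -3.59 and -3.63. The mice in 85% O2 lay above those in 21% O2, by 2.15 ± 0.14 at P5 and by 2.19 ± 0.41 at P14 (SE, adjusted p = 5.41e-08 and 0.00043, limma). The size depended on the background correction, since after normexp the rises were 0.86 and 1.16, both called, and then Epha2 rose more (1.17 and 1.48). The probe was well above background on 1 of 4 arrays of A34a mice in 21% O2 at P5 and on all 4 of the other groups.

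Robo4, the endothelial Robo, was at 4.36, 4.46, 4.43 and 4.23 in 21% O2 and at 5.08, 4.85, 4.89 and 4.74 in 85% O2 at P5. The groups did not overlap, and Robo4 rose by 0.52 at P5 and by 0.77 at P14. Robo1 fell by 0.29 and 0.27 on its brightest probe, and a dimmer one differed by -0.05 and -0.16 (adjusted p = 0.847 and 0.633, limma). Robo2 rose by 0.28 at P14. Of the 4 Robo genes, 2 rose and 1 fell at P5, while 3 rose and 1 fell at P14, where 18.2% and 28.9% of all gene names rose and 27.6% and 32.7% fell. Of 10 endothelial markers, 2 rose and 5 fell at P5 and 3 rose and 3 fell at P14 (2 and 5 with quantile normalization), and their mean level ranged over the SCR mice from -0.12 to 0.12 in 21% O2 and from -0.18 to -0.06 in 85% O2 at P5. At P14 it ranged from 0.08 to 0.18 in 21% O2 and from -0.13 to -0.03 in 85% O2. The part of endothelial cells in the Robo4 result was not tested.

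Among the netrins every called gene was lower in 85% O2. In SCR mice 2 of 3 tested netrins fell at P5, and at P14 the same 3 netrins all fell, where 27.6% and 32.7% of all gene names fell. Ntn5, the other netrin, is given apart. Ntn1, the founding netrin of the vertebrates, was at 0.21, 0.17, 0.41 and 0.55 in 21% O2 and at -0.30, -0.29, -0.52 and -0.50 in 85% O2 at P5, and at 0.67, 0.64, 0.73 and 0.61 and at -0.12, -0.20, 0.02 and -0.08 at P14. The groups did not overlap at either age, and Ntn1 fell by 0.73 ± 0.11 and by 0.76 ± 0.11 (SE, adjusted p = 8.67e-05 and 4.94e-05, limma). A dimmer Ntn1 probe differed by -0.34 at P5 and by 0.26 at P14 (adjusted p = 0.0922 and 0.256, limma).

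Ntn3 fell by 0.65 at P5, from -0.44, -0.37, -0.25 and -0.48 to -1.02, -1.11, -1.12 and -0.89, and by 0.91 at P14. Ntn4, a netrin of basement membranes, differed by -0.17 at P5 (adjusted p = 0.209, limma) and fell by 0.81 at P14, from -1.91, -2.08, -1.72 and -1.86 to -2.77, -2.70, -2.85 and -2.49 (-0.52 after normexp, called). Ntn5 was well above background on 4 of 4 arrays in 21% O2 and on 0 of 4 in 85% O2 at P14, and was at least 1.91-fold lower there (adjusted p = 0.000137, limma). It was tested only because of its level in 21% O2, so its direction was set by the filter and adds nothing to the count. After normexp its difference was 0.05. In A34a mice Ntn1, Ntn3 and Ntn4 fell at P5 and at P14, where 29.9% and 37% of all gene names fell. With quantile normalization, normexp or the authors' values Ntn4 was not called at P5 in A34a mice.

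The Unc5 receptors, which mediate repulsion from netrins, fell in 2 of 3 tested genes at P5, as did 27.6% of all gene names, and rose in 2 of 3 at P14, as did 28.9%. At P5 Unc5a fell by 0.59 and Unc5b, an endothelial netrin receptor, by 0.34, while Unc5c differed by -0.27 (adjusted p = 0.0546, limma). With normexp, quantile normalization or the authors' values, Unc5c was called lower at P5 too. At P14 Unc5b rose by 0.49 and Unc5c by 0.49 (adjusted p = 6.58e-05 and 0.00423, limma), and Unc5a differed by -0.21 (adjusted p = 0.162, limma). The difference of the oxygen effect between the ages passed the test for Unc5b (0.83, adjusted p = 6.82e-07, limma) and for Unc5c (0.76, adjusted p = 0.000812, limma).

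Of the 3 names that only share letters with the families, 0 changed at P5, and Unc5cl and Plxna4os1 were called lower at P14 (-1.04 and -0.69). With quantile normalization neither was called (-0.67 and -0.15, adjusted p = 0.114 and 0.63, limma), nor with normexp, where Plxna4os1 was at 0.16, or with the authors' values. They are included in the counts of member names above and in no family.

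Markers of other cells moved with oxygen beside these genes in SCR mice. Of 8 neuron markers, 5 were tested at P5, where 4 fell, and 6 at P14, where 6 fell (3 after normexp). The mean level of the list, relative to all mice of an age, ranged from 0.05 to 1.09 in 21% O2 and from -0.62 to -0.47 in 85% O2 at P5, and from 0.25 to 1.17 and from -0.93 to -0.80 at P14. Of 4 tested Schwann cell markers 2 fell at each age, but at P14 1 with normexp and 0 with quantile normalization, and of 7 proliferation markers 7 fell at P5 and 2 at P14 (1 with normexp or quantile normalization). Markers of heart muscle fell in 7 and 5 of 8, of skeletal muscle in 3 and 5 of 8 (3 at P14 with normexp), and of lymphocytes in 1 and 7 of 8 (0 at P5 with normexp), at P5 and P14 in that order. Thymus markers fell in 1 of 4 and 6 of 7 (2 at P14 with normexp and 4 with quantile normalization). Lymphatic markers rose in 1 and 1 of 4 and fell in 0 and 2 (1 at P5 with normexp, and 0 at P14 with normexp or quantile normalization). PDGFRa+ mesenchymal markers fell in 5 and 7 of 8 and rose in 0 and 1, and macrophage markers rose in 5 and 4 of 5. The lung's own type I and type II pneumocyte markers were tested in 8 of 8 each. Type I markers rose in 7 and 4 of 8, and type II markers fell in 1 and 6 of 8 and rose in 1 and 1 (0 at P14 with normexp or quantile normalization). With quantile normalization 1 type I marker fell at P14. At P14 Nefl (neuron), Dach2 (PDGFRa+ mesenchymal), Rag1, Themis and Ptcra (thymus), all counted as lower, were well above background on 4 of 4 arrays in 21% O2 and on 0 of 4 in 85% O2, so the filter set their direction. The part of any of these cells in the guidance genes was not tested.

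With age, from P5 to P14 in 21% O2, 43 of 67 member names changed in SCR mice, 21 higher and 22 lower, which is 64.2% against 52.3% of all gene names (limma). Ntn4 rose from -3.64, -3.70, -3.66 and -3.65 to -1.91, -2.08, -1.72 and -1.86, by 1.77 ± 0.11 (SE, adjusted p = 4.93e-12, limma). Sema3c rose by 1.70, Epha8 by 1.26, Sema3b by 0.83 and Epha4 by 0.73. Unc5c went down, from 1.22, 1.40, 1.48 and 1.07 to 0.16, 0.30, 0.17 and 0.13. It fell by 1.11 ± 0.12 (SE, adjusted p = 3.08e-08, limma), and the other tested Unc5 receptors fell too, Unc5a by 0.53 and Unc5b by 0.37. Sema5b fell by 1.17, Ephb1 by 1.04, Plxna3, a receptor of class 3 semaphorins, by 0.97 and Sema3d by 0.76. Another Sema5b probe was not called (-0.40, adjusted p = 0.0853, limma), and Sema3d did not pass the methods' t-test (adjusted p = 0.0602). Without the arrays that stood apart Slit3, Efna1 and Robo4 lost their call and Slit2 gained one, lower.

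In 85% O2, 39 of 67 member names changed with age, 22 higher and 17 lower (58.2% against 43.8% of all gene names, limma). Epha3 was at -0.82 ± 0.19 at P5 and -1.82 ± 0.06 at P14 in 21% O2 (SD, n = 4), and at -0.60 ± 0.21 and -0.55 ± 0.17 in 85% O2. It fell with age in 21% O2, and in 85% O2 the difference was 0.05 (adjusted p = 0.706, limma). Ephb1 differed by 0.17 in 85% O2 (adjusted p = 0.454, limma). Epha8 rose with age in 21% O2 and fell by 1.11 in 85% O2. Ntn4 and Sema3c rose with age in 85% O2 as well, by 1.13 and 0.76. The oxygen effect itself differed between P14 and P5 in 33 of 67 member names, 21 more positive and 12 more negative at P14 (49.3% against 41.6% of all gene names, limma). Without the arrays that stood apart Plxna2, Efnb2 and Ntn5 lost this call, and Efnb1 and Efna2 gained it. Efnb2 then also lost its call with age in 85% O2. Markers of other cells also moved with age in SCR mice, and their part in the guidance genes was not tested. Of all gene names, 28.6% rose and 23.7% fell with age in 21% O2, and 27.3% rose and 16.6% fell in 85% O2. In 21% O2 7 of 7 proliferation markers fell and 8 of 8 lymphocyte markers rose, with 6 of 8 type I pneumocyte and 6 of 10 endothelial markers (7 with normexp). Of the 6 tested neuron markers 3 rose, of PDGFRa+ mesenchymal markers 4 of 8 rose and 2 fell, and of lymphatic markers 3 of 4 fell (1 with normexp). In 85% O2, read on the 75th-percentile scale alone, 7 of 7 proliferation markers fell, 6 of 8 type I and 7 of 10 endothelial markers rose, and 1 lymphocyte marker rose and 2 fell.

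**Figure D4:**
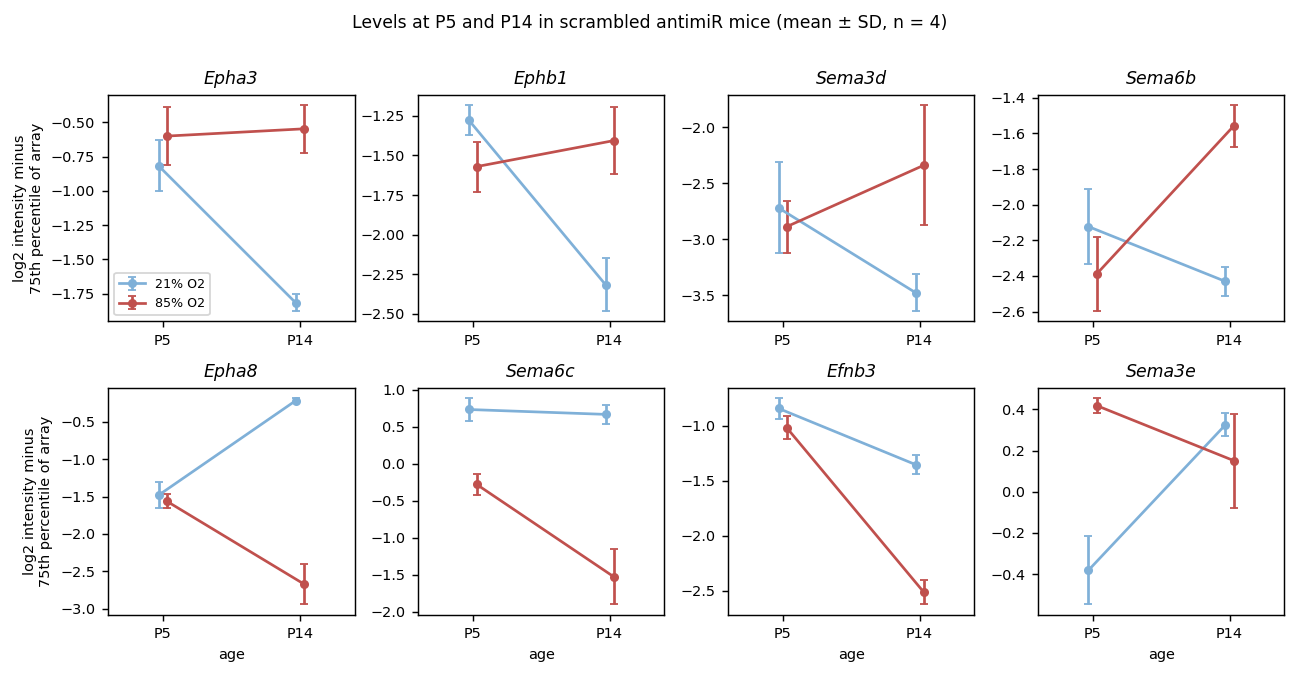
Level of guidance genes (log2 intensity minus the 75th percentile of the array) at P5 and P14 in SCR mice in 21% O2 and 85% O2, as means of 4 mice ± SD. Epha3 falls with age in 21% O2 (-0.82 to -1.82), and Epha8 rises in 21% O2 (-1.48 to -0.22) and falls in 85% O2 (-1.56 to -2.67).

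In A34a mice, 85% O2 changed 33 of 66 member names at P5, 8 higher and 25 lower (50% against 48.2% of all gene names, limma), and 49 of 67 at P14, 24 higher and 25 lower (73.1% against 66.4%). With normexp the split at P14 was 25 higher and 18 lower. Epha10 at P5 and Ntn5 at P14, both counted as lower, were well above background on 0 of 4 arrays in 85% O2. At P5 Robo3, above background on 1 of 4 arrays in 21% O2, rose by 2.06 (0.66 after normexp, called), Epha2 by 0.73 and Sema3b by 0.42, and Sema5b fell by 1.13, Ntn1 by 0.97 and Slit2 by 0.79. At P14 Epha8 fell by 2.74, Sema6c by 2.01 and Sema6a by 1.72, and Epha2 rose by 1.54, Sema3d by 1.39 and Plxnb2 by 1.08. Robo3 was at -2.46, -0.96, -3.77 and -3.05 in the A34a mice in 85% O2 at P14, with replicate 2 far above the others, and rose by 2.88 ± 0.41 (SE, adjusted p = 3.73e-05, limma). Efna2 fell by 3.90, and its difference was -4.57 without the arrays that stood apart, which its own level had shown. Among the other members, Sema4g, Plxna1, Sema4c and Unc5a lost their call at P14 without these arrays. Ephb4 at P14 and Unc5cl at P5 gained one, both lower.

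Markers of other cells moved with oxygen in A34a mice too. At P5 neuron markers fell in 4 of 5 (3 with normexp or quantile normalization), proliferation markers in 7 of 7, PDGFRa+ mesenchymal markers in 5 of 8 and heart muscle markers in 2 of 8, while lymphocyte markers rose in 4 of 8 and fell in 1, and macrophage markers rose in 4 of 5. At P14 neuron markers fell in 6 of 6 (4 with normexp), lymphocyte markers in 6 of 8 and heart muscle markers in 4 of 8. PDGFRa+ mesenchymal markers fell in 7 of 8 (5 with normexp) and rose in 1. Proliferation markers fell in 3 of 7 (2 with quantile normalization) and thymus markers in 7 of 7 (4 with normexp), and macrophage markers rose in 4 of 5. Type II pneumocyte markers fell in 6 of 8 at P14, and at P5 1 rose and 1 fell. Endothelial markers rose in 2 and fell in 3 of 10 at P5 (5 fell with quantile normalization or the authors' values). At P14 they rose in 3 and fell in 3 (2 and 4 with quantile normalization). Type I pneumocyte markers rose in 5 of 8 at P5, and rose in 4 and fell in 1 of 8 at P14. Lymphatic markers rose in 2 of 4 at P5 (1 with normexp), and at P14 1 rose and 1 fell (0 fell with normexp or quantile normalization). Skeletal muscle markers fell in 1 and 3 of 8 (0 and 2 with quantile normalization) at P5 and P14. Schwann cell markers fell in 0 of 4 at P5 and in 2 at P14 (1 with normexp or quantile normalization). Thymus markers fell in 2 of 4 at P5 (1 with quantile normalization). Their part in the guidance genes was not tested, and neither was a difference of these counts between A34a and SCR mice.

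The oxygen effect was not shown to differ between A34a and SCR mice. By limma 0 of 66 member names were called at P5 and 0 of 67 at P14, where 0.0516% and 0.0822% of all gene names were called, with 9 and 3 members at an unadjusted p under 0.05, as 10.9% and 14.8% of all gene names were. Without the arrays that stood apart, 16% of all tested probes and 3 members were called at P14, Efna2 (-3.10), Slit2 (-0.64) and Plxnb2 (0.35). The levels of Efna2 and Plxnb2 showed which arrays stood apart, so the choice of arrays set their calls.

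Between A34a and SCR mice in 85% O2 at P14, 1 of 67 member names was called, Unc5c, which was lower with antimiR-34a (1.49% against 2.51% of all gene names, limma). Its level was 0.69, 0.69, 0.51 and 0.82 in SCR mice and 0.38, -0.36, -0.05 and 0.07 in A34a mice. All A34a mice lay below all SCR mice, and Unc5c fell by 0.67 ± 0.13 (SE, adjusted p = 0.0147, limma). In 21% O2 at P14 it was at 0.16, 0.30, 0.17 and 0.13 in SCR and at 0.24, 0.22, 0.28 and 0.00 in A34a mice. A dimmer Unc5c probe was at -0.90, -0.90, -0.87 and -0.75 in SCR mice and -1.18, -1.82, -1.50 and -1.45 in A34a mice in 85% O2, and fell by 0.63 (adjusted p = 0.00825, limma). The probes lie at chr3:141497142-141497201 and chr3:141492190-141492249 (mm9, per the array files), and exon and intron annotation of that build was not used here.

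The Unc5c call rested on the spread shared by the arrays of P14. With the 8 arrays of its slide alone the adjusted p was 0.153 (limma), and in the methods' t-test it was 0.355. Leaving out any 1 of the 8 mice gave differences between -0.79 and -0.55, each called. In A34a mice the oxygen effect on Unc5c was -0.18 (adjusted p = 0.231, limma), and the difference from the effect in SCR mice was -0.67 ± 0.18 (SE, adjusted p = 0.147, limma). Of 3 Epha7 probes, the dimmest was also called in 85% O2 at P14 (-0.65, adjusted p = 0.0277, limma), and the other 2 differed by 0.01 and 0.18.

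In the other antimiR comparisons 0 members were called by limma and 0 by the methods' t-test. In 85% O2 at P5, where 0.0714% of all gene names were called, 8 of 66 members had an unadjusted p under 0.05, as did 13.3% of all gene names. Plxna2 (-0.30 ± 0.06), Sema3g (0.56 ± 0.16) and Efnb3 (-0.31 ± 0.10) had the smallest, with adjusted p of 0.118, 0.19 and 0.24 (SE, limma). Without SCR replicate 4 of that group, Plxna2 and Sema3g were called (adjusted p = 0.0451 and 0.0292, limma). In 21% O2 at P5, where 0.119% of all gene names were called, 12 of 66 had an unadjusted p under 0.05, as did 17.7% of all gene names. Epha8 (0.37 ± 0.08), Sema3a (0.31 ± 0.08) and Robo4 (0.24 ± 0.07) had the smallest, with adjusted p of 0.0853, 0.0996 and 0.149 (SE, limma). Without SCR replicate 3 of that group, Epha8 was called (adjusted p = 0.0329, limma).

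In 21% O2 at P14, where 0% of all gene names were called, 4 of 67 members and 10.4% of all gene names had an unadjusted p under 0.05. The members included Plxna1 (-0.23), Efna2 (1.73) and Ntn4 (-0.29). Without SCR replicate 4 and A34a replicate 1, 4 members were called. Efna2 (3.10, adjusted p = 4.77e-06, limma) and Epha10 (0.77) were then higher with antimiR-34a, and Plxnb2 (-0.37) and Sema4a (-0.33) lower. With those arrays left out 15.5% of all tested probes were called, so a share of this size was the background of the 4 members. Without SCR replicate 4 alone, Efna2 was the member called (2.43), which the choice of that array set.

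Co-receptors and partners inside the cell were read from a list of 36 pathway genes, of which 34 were tested at P5 and 35 at P14. In SCR mice 7 rose and 6 fell in 85% O2 at P5, where 45.8% of all gene names were called, and 11 rose and 13 fell at P14, where 61.6% were. With normexp 11 rose and 9 fell at P14, and with the authors' values 8 rose and 16 fell. The neuropilins, co-receptors of class 3 semaphorins and of VEGF, went in opposite directions at P14, where Nrp1 fell by 0.76 and Nrp2 rose by 0.57. With age in 21% O2 Nrp1 rose by 1.42 and Nrp2 fell by 0.61. Dscam, a netrin receptor, was well above background on 4 of 4 arrays in 21% O2 and on 0 of 4 in 85% O2 at P14, and was at least 2.20-fold lower (adjusted p = 9.63e-05, limma). Its direction was likewise set by the filter, and it is 1 of the 13 that fell. Crmp1, a mediator of Sema3a signals, fell by 0.72 at P5 and rose by 1.13 at P14. Flrt3, a ligand of Unc5 receptors, rose by 0.77 at P5, and Mical3, of a family of oxidases that act on actin, rose by 0.82 at P14.

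Between A34a and SCR mice, 1 list gene was called in 85% O2 at P14, where 2.51% of all gene names were. In 21% O2 at P5 1 was called, where 0.119% of all gene names were. Both were higher with antimiR-34a. No alternative was run on these list genes in the antimiR comparisons. In 21% O2 at P5 it was Flrt3 (0.49, adjusted p = 0.0438, limma). In 85% O2 at P14 it was Nck1, an adaptor between guidance receptors and actin, which rose by 0.69 ± 0.08 (SE, adjusted p = 0.00173, limma). Nck1 fell with 85% O2 by 1.16 in SCR mice and by 0.40 in A34a mice at P14, and this difference of the oxygen effect passed the test (0.76, adjusted p = 0.0417, limma).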

How the data were processed

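Lung RNA of 32 mice (8 groups of 4, grouped by the labels) was measured on Agilent one-colour mouse arrays with 62976 spots. The authors deposited the intensity of each spot, background-subtracted by Agilent Feature Extraction 10.7.3.1 (version from the submitters' processing notes), and a table of processed values on a log2 scale, which the authors made from the same arrays and whose normalization is not given in the sources used here (median 6.00 to 6.01 on each array). Control spots and outlier spots (0.211%) were left out and spots of a probe averaged. For each probe, log2 intensity was taken relative to its array's 75th percentile. Probes that the scanner software marked well above background in every mouse of at least 1 group of the fit were tested with limma 3.58.1 (R 4.3.3, data.table package, version 1.17.8) and Benjamini-Hochberg adjustment. Oxygen and antimiR were fitted on the 16 arrays of an age, and comparisons between ages on all 32.

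A probe that was well above background on 0 arrays of a group has only a bound there, and its fold is then given as "at least". It is the brighter group's mean against, per array, the higher of the probe's own signal and the lowest signal among probes well above background. Probe positions are on mm9, per the array files. The number of arrays limits the precision. Each gene was read on its tested probe with the highest mean over all arrays. The members, the lists of markers and of pathway genes, and the tests were chosen with earlier results of these data known. For oxygen in SCR mice, up to 8 called genes a direction with the largest difference and no overlap of groups were named, with age up to 6, and for the antimiR and for oxygen in A34a mice up to 4, or the 3 with the smallest p where none was called. Other genes named complete a family or a list and were chosen after their values were seen. The replicate number was checked as a pairing. Alternatives were normexp (offset 50), quantile normalization, the authors' processed values, other filters on dim probes, only the compared groups, the methods' t-test, the replicate block, all probes, each mouse left out and the 3 arrays that stood apart left out. The test was checked on simulated data with independent noise for each probe, which held no slide or array-wide difference. Slide could not be fitted for oxygen or age.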

Additional observations from a re-analysis of the deposited data

Results flagged for a closer look

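Among the groups of 4 mice of the named members, 13 held a mouse far from the other 3 (10.4% of the groups examined), where chance flags about 1 in 20 groups. The values are log2 levels. Robo3 was at -5.60 in SCR replicate 1 in 21% O2 at P5, with the others between -5.96 and -5.93. Plxna2 was at 1.61 in SCR replicate 2 in 21% O2 at P5, with the others between 1.47 and 1.49. Epha3 was at -1.73 in SCR replicate 2 in 21% O2 at P14, with the others between -1.85 and -1.83. Efna3 was at -3.49 in SCR replicate 4 in 21% O2 at P14, with the others between -2.91 and -2.88. Plxnb2 was at 3.80 in SCR replicate 4 in 21% O2 at P14, with the others between 4.26 and 4.32. Epha8 was at -2.26 in SCR replicate 4 in 85% O2 at P14, with the others between -2.82 and -2.78. Epha8 was at -0.27 in SCR replicate 4 in 21% O2 at P14, with the others between -0.20 and -0.20. Efna2 was at -0.16 in A34a replicate 1 in 21% O2 at P14, with the others between 2.48 and 2.55. Sema3b was at 3.68 in A34a replicate 1 in 85% O2 at P5, with the others between 3.83 and 3.85. Ntn1 was at 0.74 in A34a replicate 2 in 21% O2 at P5, with the others between 0.40 and 0.41. Slit2 was at 2.97 in A34a replicate 2 in 21% O2 at P5, with the others between 3.14 and 3.17. Plxnb2 was at 4.22 in A34a replicate 1 in 21% O2 at P14, with the others between 3.89 and 3.94. Efna2 was at -2.37 in A34a replicate 2 in 85% O2 at P14, with the others between -1.97 and -1.92. The cause was not tested.

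The oxygen effect differed between P14 and P5 in 13 of 25 named genes of SCR mice, by the test of the difference itself (limma), where it differed in 41.6% of all gene names. Ntn5, also named, passed the test too and is left out of this count. The 25 were named for their oxygen differences at P5 or at P14, so the count is a description. The values are the effect at P14 minus that at P5, on the log2 scale. It was more positive at P14 for Sema3d (1.31, adjusted p = 0.00191), Ephb1 (1.21, adjusted p = 0.000252), Efna3 (1.16, adjusted p = 0.00262), Sema6b (1.14, adjusted p = 6.86e-05), Epha3 (1.05, adjusted p = 4.1e-06), Plxnb2 (0.85, adjusted p = 3.77e-05) and Sema5b (0.76, adjusted p = 0.00355). It was more negative for Plxna2 (-0.38, adjusted p = 0.0347), Sema6a (-0.89, adjusted p = 0.00487), Sema3e (-0.97, adjusted p = 0.000197), Efnb3 (-0.98, adjusted p = 0.000572), Sema6c (-1.18, adjusted p = 0.000291) and Epha8 (-2.37, adjusted p = 2.6e-07). The Ntn5 value (-1.49, adjusted p = 0.0285, limma) is no measured difference, since its probe was well above background on 3 and 2 of 4 arrays (21% and 85% O2) at P5 and on 0 of 4 in 85% O2 at P14. Without the arrays that stood apart Plxna2 was not called (-0.39, adjusted p = 0.0543, limma). A dimmer Sema6c probe did not differ past the threshold (-0.03, adjusted p = 0.876), and neither did the other Sema5b probes (-0.06 and 0.19, adjusted p = 0.893 and 0.625, limma). The antimiR effect differed between the oxygen levels in 0 of the named members of these families.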

How the results depend on the processing

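The counts of called members under oxygen and age kept within 1.5 times of the reported ones under every alternative run. Of 1189 values of 70 named gene and comparison pairs under alternatives, 1161 kept their direction and side of the threshold, 21 lost and 6 gained a call, and 1 reversed, Ntn5 in SCR mice at P14, which was at 0.052 after normexp (the cause was not tested). For A34a against SCR, 2 members were called in 85% O2 at P5 with no filter on dim probes. In 85% O2 at P14, 0 were called with only the arrays of the compared groups, 0 with the methods' t-test and 3 when all tested probes were counted. Without the 3 arrays that stood apart, 4 were called in 21% O2 at P14 and 3 for the difference of the oxygen effect between A34a and SCR mice at P14, where 15.5% and 16% of all tested probes were called. Both counts include Efna2 and Plxnb2, whose levels showed which arrays stood apart at P14.

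Leaving out 1 mouse at a time gave 25 to 30 called members for oxygen in SCR mice at P5, 45 to 49 at P14, and 27 to 32 and 45 to 49 in A34a mice. For A34a against SCR it gave 0 to 2 in 85% O2 at P5, 1 in each fit at P14, 0 to 1 in 21% O2 at either age, and 0 for the differences of the oxygen effect between A34a and SCR mice at both ages. With age it gave 39 to 42 in 21% O2 and 29 to 39 in 85% O2, and 30 to 36 for the difference of the oxygen effect between ages.

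Same-numbered mice shared a slide column, and their deviations correlated between -0.35 and 0.50, so the numbers did not pair the mice. With the replicate number as a block, 29 and 49 members were called for oxygen in SCR mice at P5 and P14, 29 and 49 in A34a mice, 1 for A34a against SCR in 85% O2 at P14, and 0 in the other antimiR comparisons. Normexp moved the median difference of all probes in SCR mice at P14 from -0.07 to 0.11, so small differences there depend on it. Dim probes such as Robo3, Ntn5 and Epha10 were limited by their signal over background, and 4 mice a group limit the precision of every value.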
